A study of Rattus norvegicus with 65 samples.

Results

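The nuclear genes of oxidative phosphorylation were followed across rat mammary tumors that had been passed from host to host. A gene was a member when its symbol began with Nduf (complex I and its assembly factors), Sdh (complex II), Uqcr (complex III), Cox followed by 4 to 8 (complex IV) or Atp5 (complex V, the ATP synthase). By this rule 88 of the 10411 genes that the array's probe sets name singly were members: 41 of complex I, 8 of complex II, 7 of complex III, 16 of complex IV and 16 of complex V. They comprised 74 subunits, 9 assembly factors, the ATPase inhibitor Atp5if1, the pseudogene Cox6c-ps1 and 3 muscle isoforms of complex IV, which were kept apart. Another 7 probe sets that name a member together with another gene were left out, so Cox7a2, Uqcrb, Ndufs5, Ndufa10, Atp5mc1 and Atp5mc2 were not read.

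The study took carcinogen-induced rat mammary tumors through 5 generations of syngeneic hosts to obtain tumors that differ in invasive behavior. RNA of 65 tumors was hybridised to 1 Affymetrix array each. Primary tumors and transplants 1, 2, 3 and 4 have 11 arrays each, and transplant 5 has 10, because series 10 is sampled only up to transplant 4. Each of the 11 transplant series, named 10, 13, 17, 19, 25L, 25R, 32, 33, 34, 36 and 42, is 1 lineage that starts from 1 primary tumor. Series 25L and 25R are labelled as left and right of series 25; the labels do not say whether both came from 1 animal, and they were counted here as separate series. The arrays of a series are therefore not independent tumors, and a p-value for a difference between series measures that difference against the spread between passages. The labels name neither the carcinogen, the rat strain nor the age of the animals, and give no untransplanted normal gland.

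Oxidative phosphorylation makes ATP in the inner mitochondrial membrane. Complexes I and II feed electrons from NADH and succinate to ubiquinone, complex III passes them to cytochrome c, complex IV reduces oxygen, and the ATP synthase uses the proton gradient that complexes I, III and IV build. Most subunits are nuclear genes, are needed in fixed ratios and are expressed in nearly all cells. Several subunits of complex IV have a form used mainly in heart and skeletal muscle.

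Levels are log2 intensities after every array was scaled to the same median, and the lowest level that could be read, called the floor here, was 5.31. Levels of different genes come from different probes and are not compared. After genes with a mean of 6.68 or less were left out, 7808 genes and 81 members were tested. The 7 members not tested were Cox4i2, Cox6a2, Cox6b2, Cox7a1, Cox8b, Ndufb8 and Sdhaf3. A gene was called where limma's adjusted p over all 7808 genes was below 0.05. In bulk tumor RNA, fewer cells of a type and less RNA per cell cannot be told apart.

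Some arrays stood apart before any comparison. All 6 arrays of series 42 had epithelial markers at or near the floor: the summed intensity of 8 markers was 323 to 381 there, against up to 23300 elsewhere, and Krt18, Krt19, Cldn3 and Cldn7 were at the floor in all 6. The mean of the epithelial markers was also below 6 in 4 other arrays, transplant 5 of series 32 and transplants 3, 4 and 5 of series 34. The median intensity before scaling was 96.1 in transplant 5 of series 32 and 143 to 176 in the other arrays. Skeletal muscle markers averaged above 7.5 in 6 arrays, from series 25L, 25R, 33, 34 and 42, which are called high in muscle markers below. The markers were not raised alike in series 42. Acta1, Tnni2, Tnnc2 and Tnnt3 reached 12.23, 11.43, 10.61 and 8.29 there. Ckm and Myl1 reached only 6.90 and 5.93, and Actn3 stayed at the floor, against up to 11.62, 11.97 and 9.91 elsewhere.

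The members, like all genes tested, varied more with the transplant series than with the generation. There were 11 series and 6 generations, and more groups can take a larger share of the variance. Among series, 76 of 81 members differed (93.8%), against a background of 84.5% of all genes. The series accounted for a median of 50.3% of a member's variance over arrays (all genes 43.5%), and the generation for 3.69% (all genes 6.08%). Without series 42 the median series share was 40.2% for members and 34.6% for all genes. The members with the largest series shares were Uqcrc1 (87.8%), Ndufaf3 (85.6%), Sdhd (83.2%), Atp5f1d (77.7%), Ndufa5 (75.9%), Cox8a (74.3%), Sdhaf1 (72.7%), Atp5f1b (71.7%), Cox6b1 (70.5%) and Ndufv3 (68.7%). Without series 42 their shares were, in the same order, 40.2%, 51.9%, 47.8%, 66.6%, 35%, 51.6%, 58.1%, 55.4%, 46.4% and 61.6%.

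A summary level for each array was taken as the median, over the subunits tested, of the deviation from each gene's mean over arrays. It was highest in series 42, where it lay between 0.15 and 0.37 (mean 0.30 ± 0.08, SD over 6 arrays), and in series 33, between 0.03 and 0.30 (0.16 ± 0.10). It was lowest in series 17, between -0.44 and 0.05 (-0.22 ± 0.19), and in series 19, between -0.33 and -0.09 (-0.20 ± 0.09). The ranges of series 42 and 19 did not overlap, while series 17 ran from 0.05 in its primary tumor to -0.42 and -0.44, the lowest values of all, at transplants 3 and 4. The generation means ran only from -0.05 in primary tumors to 0.04 at transplant 2. The 4 arrays outside series 42 with epithelial markers near the floor were not alike: transplant 5 of series 32 had the highest summary level of all, 0.40, and transplants 3, 4 and 5 of series 34 had -0.05, -0.22 and -0.12. Across the 65 arrays the summary level had a correlation of -0.51 with the log2 median intensity before scaling (-0.40 over the 59 arrays without series 42) and 0.26 with the Gapdh 3' to 5' control ratio. It was 0.29 with the muscle markers (0.21 without series 42), -0.22 with the epithelial markers (0.15 without series 42) and 0.27 with the proliferation markers (0.07 without). These describe arrays that share lineages. With the log2 median intensity before scaling as a covariate, the series comparisons described below gave 52 members higher in series 42 (31% of all genes), 28 higher in series 33 (12.5%), 27 lower in series 17 (10.4%) and 22 lower in series 19 (14.3%).

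**Figure D1:**
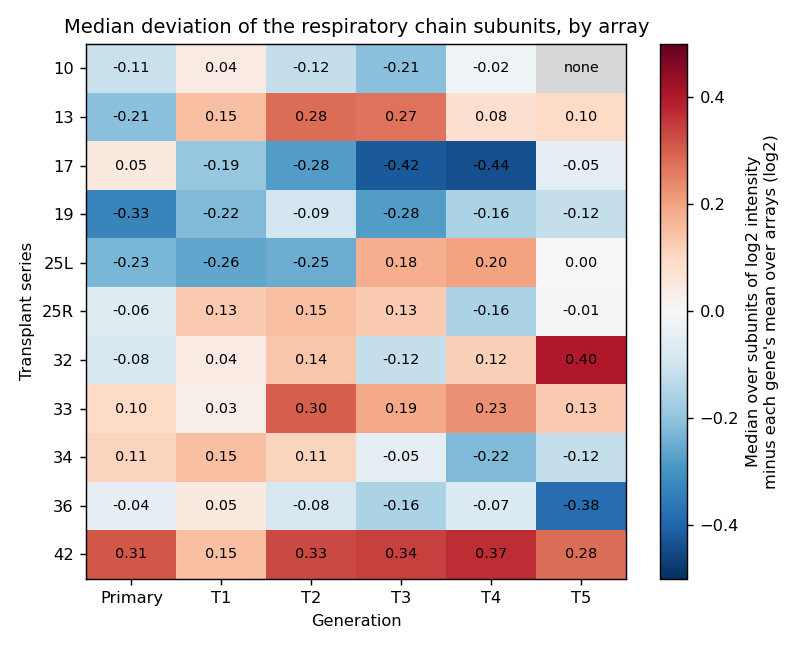
Median deviation of the tested subunits from each gene's mean over arrays (log2), for every series (rows) and generation (columns); grey marks the tumor that was not among the samples. Series 42 is above 0 in all 6 arrays (0.15 to 0.37) and series 19 below 0 in all 6 (-0.33 to -0.09), while series 17 falls from 0.05 in the primary tumor to -0.44 at transplant 4.

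Subunits rose and fell together across arrays whatever their complex. The median correlation between subunits over the 65 arrays was 0.512 within a complex and 0.531 between complexes, against 0.00525 for pairs of all genes, and 91% of pairs were positive. Without series 42 the values were 0.518 and 0.518. These points share series, scaling and array brightness. Ndufb3 (0.91 with the median of the other subunits) and Atp5pd (0.89), a stalk subunit of the ATP synthase, followed the rest most closely. Ndufa4l2, a paralog of Ndufa4 known to be induced by low oxygen, ran against the rest (-0.43, and -0.34 without series 42). Ndufv3, an accessory subunit of the NADH-oxidising arm, had -0.15, Cox7a2l, which is known for joining complexes III and IV, had -0.14, and Ndufc1 had 0.07.

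Each series was then set against the mean of the other 10, in fits that share all arrays. Series 42 had 53 members higher (background 34.5% of all genes) and 6 lower (background 26.4%), with a median member difference of 0.33 on the log2 scale against 0.06 for all genes. Under quantile normalization the split was 44 higher and 11 lower (31.9% and 29% of all genes), with a median of 0.21 against 0.02. Without rescaling it was 38 and 10 (22.6% and 36.4%), with a median of 0.17 against -0.10. Series 33 had 26 higher (11.5%) and 0 lower (8.34%), where 37 members had an unadjusted p below 0.05 in limma in either direction. Series 17 had 1 higher (5.33%) and 39 lower (10.9%), and series 19 had 0 higher (7.12%) and 36 lower (16.8%), with median differences of -0.23 and -0.21 against -0.04 for all genes in both. The count of higher members in series 33 was 55 with array weights (27.5% of all genes), 18 without the arrays high in muscle markers (8.2%) and 15 with the Gapdh ratio as a covariate (10%). Without series 42 among the others, series 33 had 31 higher (10.9% of all genes), series 17 had 22 lower (6.83%) and series 19 had 23 lower (11.9%). With array weights, 72 and 57 were lower in series 17 and 19 (32.1% and 30.3% of all genes). The counts in series 17 and 19 also moved with the scaling: 27 and 13 members were lower after quantile normalization (10.1% and 12% of all genes) and 15 and 16 without rescaling (3.78% and 8.35%). Series 19 then also had 5 and 2 higher (13.1% and 11.6%), so after quantile normalization its share of lower members was close to that of all genes. Medians of the members were below those of all genes in both series under each of these scalings.

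The other series stood closer to their backgrounds. Series 32 had 16 members higher (20.3%) and 3 lower (11.4%), among them Ndufs6 (0.48 ± 0.10, SE) and Ndufa1 (0.49 ± 0.10). That count rested on 1 array and on the scaling. It was 4 higher and 1 lower without its transplant 5 array (13.7% and 7.3% of all genes). It was the same with the array median as a covariate (13.3% and 7.16%). With array weights it was 3 and 0 (10.9% and 5.14%), and without rescaling 3 and 8 (10.3% and 20.2%). After quantile normalization it was 2 and 22 (11.4% and 16.1%). Series 36 had 0 higher (6.02%) and 11 lower (6.58%), led by Ndufab1 and Sdhd, each -0.47. Series 10 had 1 higher (3.32%) and 9 lower (8.29%), and 4 of those 9 were assembly factors, with Ndufaf3 at -0.62, Sdhaf2, which helps attach the flavin of Sdha, at -0.54 and Ndufaf5 at -0.48. Series 13 had 3 higher (9.4%) and 1 lower (7.11%), the latter being Ndufa4l2. Series 25L had 2 higher (4.39%) and 4 lower (8.84%), series 25R had 2 higher (4.05%) and 0 lower (3.56%), and series 34 had 4 higher (13.3%) and 4 lower (7.57%). Series 34 had 1 and 0 without the arrays high in muscle markers (7.36% and 3.79% of all genes), and 3 and 12 after quantile normalization (10.9% and 9.25%). Series 25L had 0 and 0 without the arrays high in muscle markers (0.743% and 1.79%). It also had 0 and 0 with the Gapdh ratio as a covariate (1.47% and 3.27%). With array weights series 13 had 19 higher (15.7%) and series 10 had 36 lower (25.4%). Where a direction had 0 calls, members at an unadjusted p below 0.05 in limma, in either direction, numbered 48 in series 19, 25 in series 36 and 15 in series 25R.

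**Figure D2:**
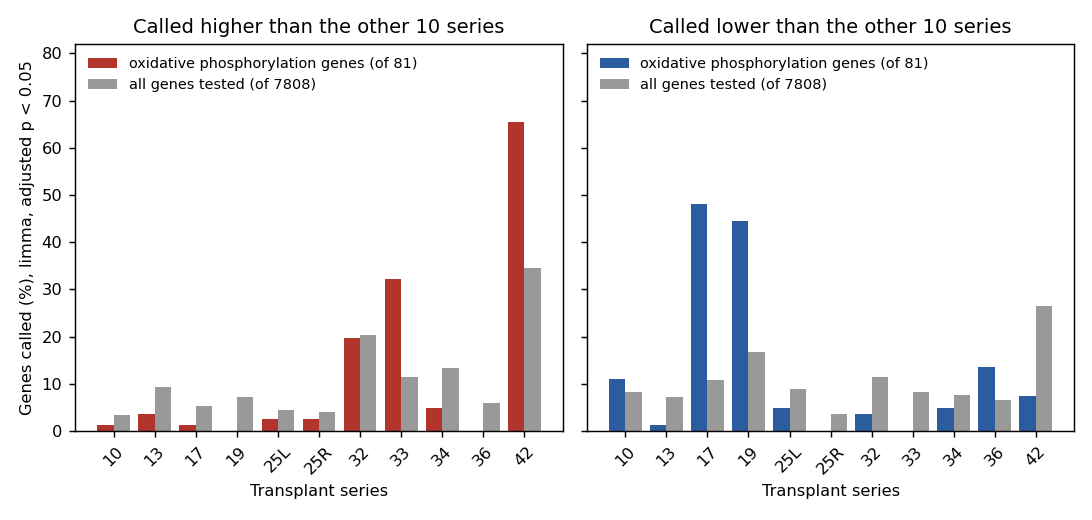
Percent of the 81 tested oxidative phosphorylation genes (colored bars) and of all 7808 tested genes (grey bars) called higher (left) or lower (right) in each series than in the other 10 (limma, adjusted p below 0.05). The colored bar exceeds the grey one most in series 42 (65.4% against 34.5% higher), 17 (48.1% against 10.9% lower) and 19 (44.4% against 16.8% lower).

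In series 42 the difference reached every complex but was largest for a few genes. The background was 34.5% of all genes higher and 26.4% lower. All 4 subunits of complex II, 6 of 7 of complex III and 7 of 10 of complex IV were higher. So were 12 of 15 of complex V and 17 of 35 of complex I, where 1 and 5 were lower. Of the 8 tested assembly factors, 7 were higher. The macrophage markers summed to 10200 to 15200 in series 42 and the skeletal muscle markers to 1930 to 10700, against 3460 to 15200 and 1050 to 22400 elsewhere. Among the macrophage markers, Lyz2 (12.84 against 11.14), Cd68, Csf1r, C1qa, C1qb and C1qc had higher medians there than in the other arrays. Cd14 and Aif1 had lower medians in series 42 (8.09 against 10.13, and 7.39 against 7.86). Without the 6 arrays high in muscle markers, its primary tumor included, 52 members were higher and 6 lower (33.1% and 24.9% of all genes). The part of its missing epithelial markers and of its macrophage markers in these differences was not tested. For 5 tested members every array of series 42 lay above every other array (6.17%, against 2.87% of all genes), and for 0 members every array lay below (2% of all genes): these were Cox8a, Ndufa5, Ndufaf3, Sdhd and Uqcrc1. Sdhaf3, which was not tested, did the same with 7.54 to 8.18 in series 42 and 5.31 to 7.25 elsewhere.

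Ndufaf3, an assembly factor of complex I, had a lowest, median and highest level of 9.33, 9.48 and 9.61 in the 6 arrays of series 42 and of 6.56, 7.54 and 8.24 in the 59 others. It was 1.92 ± 0.12 higher (SE), or 3.77-fold (limma adjusted p = 1.02e-19). The 2 groups did not overlap, and series 17 and 10 held the lowest values. Ndufa5, an accessory subunit of complex I, had 9.73, 10.07 and 10.28 against 8.14, 8.84 and 9.39, a difference of 1.20 ± 0.10 (2.29-fold, limma adjusted p = 1.46e-14).

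Sdhd, a membrane anchor of complex II, had 10.36, 10.99 and 11.11 in series 42 and 8.64, 9.57 and 10.10 elsewhere. The difference was 1.33 ± 0.09 (2.51-fold, limma adjusted p = 3.61e-18), and the primary tumor was the lowest of the 6. Uqcrc1, the core 1 protein of complex III, had 11.50, 11.94 and 12.23 against 9.63, 10.21 and 10.57. It was 1.71 ± 0.09 higher (3.27-fold, limma adjusted p = 8.47e-22) without overlap, and again the primary tumor was the lowest of series 42. Uqcrc2, the other core protein, was 0.32 ± 0.09 higher (1.25-fold, limma adjusted p = 0.00218).

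Cox8a, a small subunit of complex IV, had 12.18, 12.28 and 12.63 in series 42 against 10.86, 11.42 and 11.96, a difference of 0.89 ± 0.09 (1.85-fold, limma adjusted p = 2.78e-12). Atp5f1d, the delta subunit of the ATP synthase, was 0.81 ± 0.09 higher, but its values of 10.73 to 10.98 met the top of series 33, at 10.76. Atp5f1b, the catalytic beta subunit, had 12.24 to 12.68 in series 42, 11.18 to 11.75 in series 17 and 11.46 to 11.73 in series 19. Series 33 and 34 each reached 12.25, inside the range of series 42. Ndufs1, the iron-sulfur subunit of complex I at its NADH end, was 0.81 ± 0.14 higher in series 42 (1.75-fold, limma adjusted p = 2.51e-06). It was also 0.90 ± 0.14 higher in series 33 (1.87-fold, limma adjusted p = 1.12e-05), where it ran from 8.51 to 9.61.

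**Figure D3:**
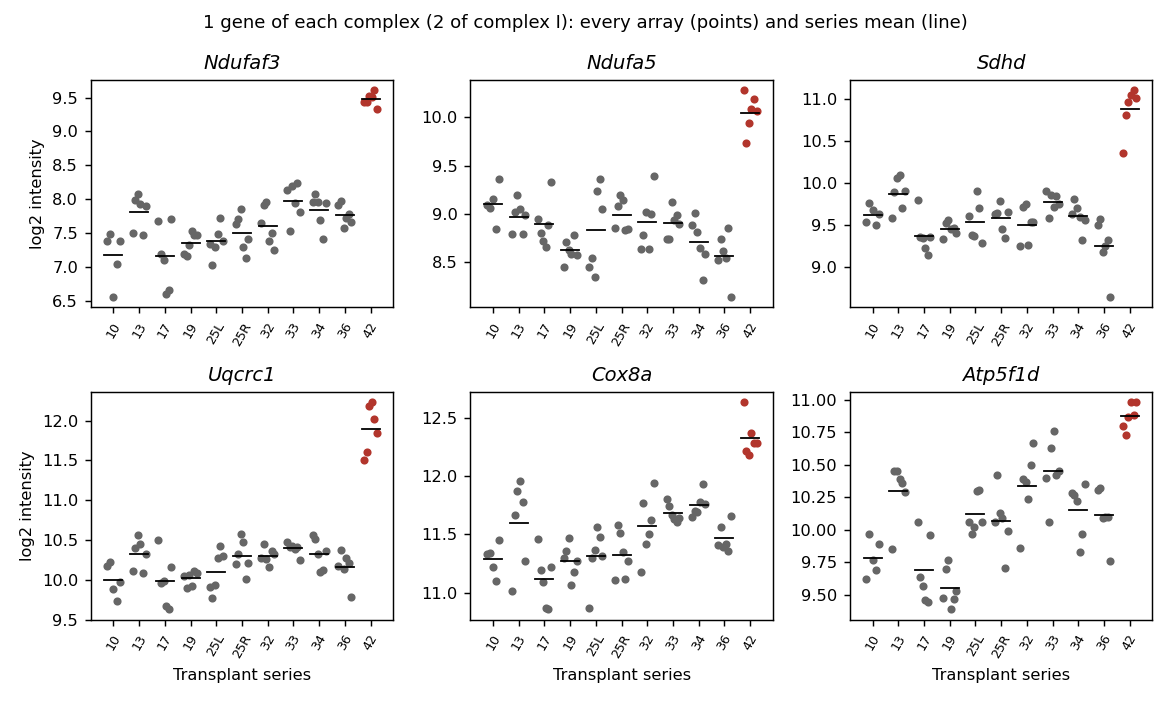
Log2 intensity of Ndufaf3 and Ndufa5 (complex I), Sdhd (complex II), Uqcrc1 (complex III), Cox8a (complex IV) and Atp5f1d (complex V) in every array, by transplant series; points are arrays, red for series 42, and lines are series means. Series 42 lies above all other arrays for the first 5 genes, and for Atp5f1d its lowest array (10.73) falls below the highest of series 33 (10.76).

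The 6 members that were lower in series 42 were Ndufa4l2 (-1.20 ± 0.37), Ndufv3 (-0.52 ± 0.08), Ndufa2 (-0.40), Atp5mf (-0.34), Ndufa6 and Ndufc1 (both -0.32). Of these, 5 are carried under complex I by their symbols, among them Ndufa4l2, the paralog of Ndufa4. Ndufv3 had 8.31 to 8.56 in series 42 and 9.07 to 9.26 in series 19, without overlap between these series. Series 34, at 8.31 to 8.96, did overlap with series 42, as did transplant 5 of series 32 (8.44) and of series 36 (8.38). Ndufa4, which is carried here under complex I by its symbol and is now placed in complex IV, was 1.03 ± 0.16 higher in series 42 (2.04-fold, limma adjusted p = 1.68e-07), with 10.51 to 12.13.

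Position on the chromosomes was set beside these values, from the gene order of the RefSeq annotation of assembly GRCr8. Uqcrc1 and Ndufaf3 lie close together on chromosome 8, and of the 20 tested genes nearest to each (10 on either side), 14 were higher in series 42, with median differences of 0.88 and 0.84. The highest of them was Prkar2a (2.08). Of the 20 nearest to Ndufa4 on chromosome 4, 18 were higher, with a median of 1.53 and the highest at Met (4.98), a receptor tyrosine kinase gene. Met was also the highest near Ndufa5, where 11 of 20 were higher and the median was 0.36. Near Sdhd, 10 of 20 were higher and 5 lower (median 0.25), and near Atp5f1d, 9 were higher and 2 lower (median 0.19). By chromosome, the members higher ranged from all 13 on chromosome 1 (45.9% of all tested genes there) to 1 of 5 on chromosome 2 (26.4%), 1 of 4 on chromosome 6 (34.8%) and 0 of 3 on chromosome 19 (32.8%), against 34.5% of all genes over the genome. Whether neighbouring genes and members share a cause was not tested.

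Promoters of the members that led these differences were read from RefSeq's assembly GRCr8, as 250 bases before and 50 after the gene start, and 80 of the 88 members matched. They were searched on both strands for 3 short cores: GCGCATGCG of NRF-1 and CCGGAAG of GABP, factors known for driving respiratory genes, and AAGATGGCG of YY1. The last letters of the GABP core can be the first of the YY1 core. The NRF-1 core was in 8.75% of the 80 member promoters and in 1.66% of all 27457 promoters of the table, the GABP core in 30% and 9.22%, and the YY1 core in 13.8% and 1.93%. Among promoters of the genes tested on the array the shares were 3.38%, 18% and 4.03%. At least 1 core was in 43.8% of member promoters, 23.3% of promoters of genes tested on the array and 12% of all promoters. Among members it was in 16 of 39 of complex I, 5 of 8 of complex II, 4 of 6 of complex III, 3 of 12 of complex IV and 7 of 15 of complex V. Such matches are letters in a window and not shown to be bound. The following promoters are shown 5' to 3' with the cores in capitals, since they belong to the 3 tested members with the largest differences in series 42 and to the 2 with the largest differences among those called over all transplants. Uqcrc1 lies at chr8:118467973-118468272 on the plus strand, Ndufaf3 at chr8:118141674-118141973 and Sdhd at chr8:59850592-59850891 on the minus strand. Ndufs1 lies at chr9:72073556-72073855 on the minus strand and Atp5mf at chr12:14535185-14535484 on the plus strand.
Uqcrc1: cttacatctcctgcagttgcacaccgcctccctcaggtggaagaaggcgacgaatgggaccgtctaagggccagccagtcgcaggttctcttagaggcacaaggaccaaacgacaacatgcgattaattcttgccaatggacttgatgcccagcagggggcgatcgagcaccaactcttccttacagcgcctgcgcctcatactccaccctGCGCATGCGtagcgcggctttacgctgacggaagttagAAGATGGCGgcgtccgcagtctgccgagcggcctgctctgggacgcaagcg
Ndufaf3: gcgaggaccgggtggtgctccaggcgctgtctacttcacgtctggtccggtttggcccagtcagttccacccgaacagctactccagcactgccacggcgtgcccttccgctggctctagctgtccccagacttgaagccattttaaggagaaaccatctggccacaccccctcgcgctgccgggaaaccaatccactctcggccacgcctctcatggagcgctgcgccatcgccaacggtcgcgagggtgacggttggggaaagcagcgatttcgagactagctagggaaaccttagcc
Sdhd: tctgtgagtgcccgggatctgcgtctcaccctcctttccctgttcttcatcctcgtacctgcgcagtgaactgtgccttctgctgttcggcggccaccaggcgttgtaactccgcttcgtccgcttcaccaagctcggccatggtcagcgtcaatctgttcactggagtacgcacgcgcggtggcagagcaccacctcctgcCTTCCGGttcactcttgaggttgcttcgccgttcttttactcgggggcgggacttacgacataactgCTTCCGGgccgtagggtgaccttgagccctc
Ndufs1: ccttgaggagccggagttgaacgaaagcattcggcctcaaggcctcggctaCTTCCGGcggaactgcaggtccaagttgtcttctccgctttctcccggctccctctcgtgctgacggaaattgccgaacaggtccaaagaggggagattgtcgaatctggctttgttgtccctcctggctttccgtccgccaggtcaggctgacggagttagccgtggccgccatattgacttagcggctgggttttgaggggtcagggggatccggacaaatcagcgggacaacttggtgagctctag
Atp5mf: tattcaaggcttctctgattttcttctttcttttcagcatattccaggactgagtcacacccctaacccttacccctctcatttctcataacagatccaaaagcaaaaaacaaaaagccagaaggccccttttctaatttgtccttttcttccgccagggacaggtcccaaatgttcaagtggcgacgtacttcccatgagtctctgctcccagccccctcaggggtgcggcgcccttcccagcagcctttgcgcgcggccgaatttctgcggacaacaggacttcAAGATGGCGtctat
Uqcrc1 held 1 NRF-1 core and 1 YY1 core, Sdhd 2 GABP cores, Ndufs1 1 GABP core and Atp5mf 1 YY1 core. Ndufaf3, which had the largest difference in series 42, held 0 of the 3, as did Ndufa4l2, which was called at transplant 5 and is not shown.

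Against the primary tumor of the same series, few members changed. Over all transplants 5 members were higher (background 4.71% of all genes) and 0 lower (5.19%), where 20 members had an unadjusted p below 0.05 in limma in either direction. The median member difference was 0.05 on the log2 scale, against 0.01 for all genes. At transplant 5, 7 members were higher (7.91%) and 0 lower (6.99%), with a median of 0.04 against 0.03. After quantile normalization 6 members were higher and 4 lower for all transplants (388 and 530 of all genes). For transplant 5 the split was 5 and 4 (504 and 668). Without rescaling the splits were 4 and 1 (184 and 449), and 4 and 4 (230 and 1121). When each series gave 1 value, or when the series were not kept as a block, 0 members were called in either comparison by limma. With 1 value per series 48 of all genes were higher and 82 lower over all transplants, and 59 and 70 at transplant 5. Without the block these were 17 and 61, and 9 and 25. With series 25L and 25R as 1 block the counts were 6 and 7. Leaving out series 17 gave 8 members for all transplants (249 of all genes higher and 229 lower) and 4 for transplant 5 (383 and 396). Leaving out series 36 gave 8 for all transplants (381 and 417). Leaving out the 10 arrays low in epithelial markers gave 6 (339 and 400) and 3 (222 and 186). At transplant 1, 0 members and 0% of all genes were called (5 members and 547 genes had an unadjusted p below 0.05). Transplant 2 gave 1 member (1.86% of all genes), Atp5mf, transplant 3 gave 1 (3.14%), Cox6a1, and transplant 4 gave 2 (6.72%), Cox6a1 and Ndufs6. The slope from transplant 1 to 5 gave 0 members (5.29%), with 2 at an unadjusted p below 0.05, and 2 without series 25L. A test over all generations gave 2 (5.17%), Atp5mf and Cox6a1. These comparisons share the primary tumors.

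Atp5mf, a subunit of the membrane part of the ATP synthase, had a lowest, median and highest level of 9.56, 10.02 and 10.31 in the 11 primary tumors, and of 10.00, 10.39 and 11.35 at transplant 5. Over all transplants it was 0.39 ± 0.09 higher (1.31-fold, limma adjusted p = 0.00471), in 10 of 11 series, and at transplant 5 it was 0.49 ± 0.12 higher (1.41-fold, limma adjusted p = 0.00595), in 9 of 10. The generations overlapped. The difference was largest in series 19, from 9.56 in the primary tumor to 11.15 at transplant 5, while series 42 stayed between 9.97 and 10.16.

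Cox6a1, the form of complex IV subunit 6a found outside muscle, had 10.09, 10.48 and 10.88 in primary tumors and 10.37, 10.82 and 11.54 at transplant 5. It was 0.26 ± 0.07 higher over all transplants (1.20-fold, limma adjusted p = 0.00705), in 10 of 11 series, and 0.36 ± 0.09 higher at transplant 5 (1.28-fold, limma adjusted p = 0.00449), in 9 of 10. Series 17 was the exception in both, with 10.85 in the primary tumor and 10.32 to 10.74 in its transplants. In series 32 the level went from 10.29 to 11.54. Cox6b1, which sits on the outer face of complex IV, had 9.96, 10.39 and 11.21 in primary tumors and 10.27, 10.54 and 11.09 at transplant 5. It was 0.23 ± 0.08 higher there (limma adjusted p = 0.0391), a call lost under 16 of 26 alternatives (adjusted p from 0.0249 to 0.519).

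Among the subunits carried under complex I by their symbols, 5 were called, with Ndufa4l2 described further below. Ndufs1 had 7.09, 7.98 and 9.05 in primary tumors and 7.82, 8.41 and 9.49 at transplant 5, a wide overlap. It was 0.39 ± 0.11 higher over all transplants (1.31-fold, limma adjusted p = 0.0177), in 9 of 11 series, and 0.53 ± 0.15 higher at transplant 5 (1.44-fold, limma adjusted p = 0.0123), in 9 of 10. These calls were lost under 6 and 3 of 26 alternatives (adjusted p from 0.00976 to 0.315 for all transplants). Ndufs6, an accessory subunit near the NADH end of the complex, had 8.84, 9.66 and 10.14 in primary tumors and 9.52, 9.82 and 10.90 at transplant 5. It was 0.31 ± 0.08 higher over all transplants (1.24-fold, limma adjusted p = 0.00642), in 9 of 11 series, and 0.35 ± 0.10 higher at transplant 5 (1.27-fold, limma adjusted p = 0.0161). The call at transplant 5 was lost without the transplant 5 array of series 32, which held the value 10.90 (0.27, adjusted p = 0.054), and under 7 of 26 alternatives in all, with adjusted p from 0.0104 to 0.215. Ndufa6 was called only over all transplants (0.20 ± 0.06, limma adjusted p = 0.0436) and lost that call under 13 of 26 alternatives, with adjusted p from 0.0235 to 0.222. Ndufa12 was called only at transplant 5 (0.26 ± 0.09, limma adjusted p = 0.0427) and lost it under 17 of 26, with adjusted p from 0.0273 to 0.367.

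**Figure D4:**
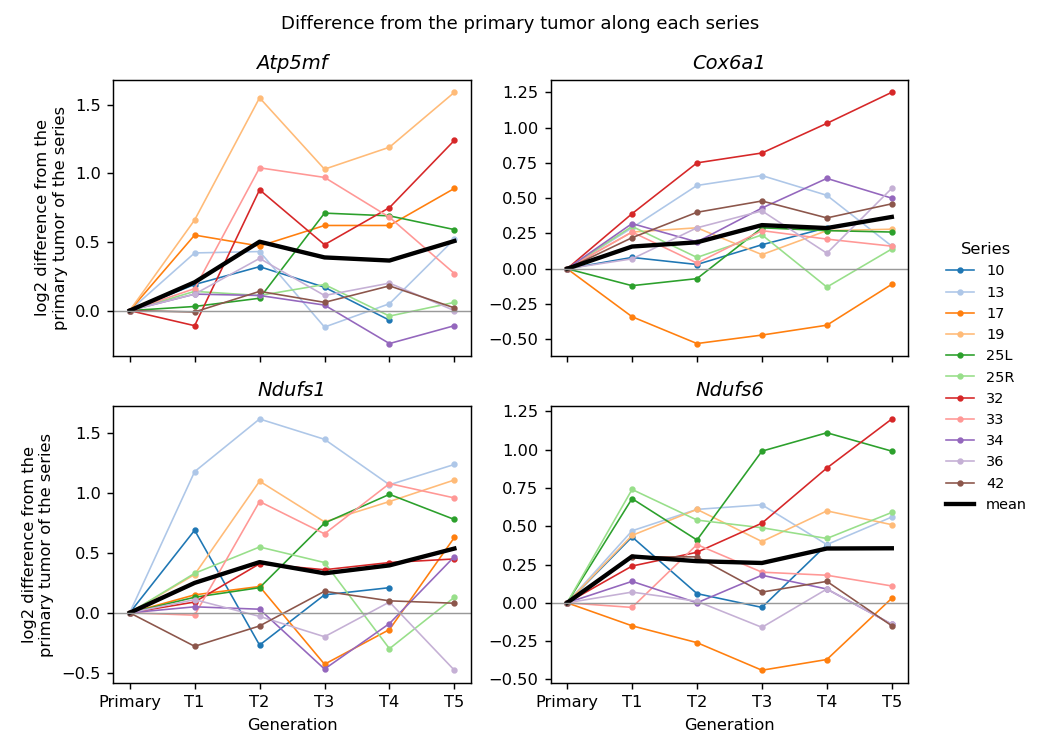
Difference of Atp5mf, Cox6a1, Ndufs1 and Ndufs6 from the primary tumor of the same series (log2) at each generation; thin lines are the 11 series and the thick line is their mean, with series 10 absent at transplant 5. The mean is above 0 from transplant 1 on for all 4 genes, while series 17 lies below 0 in all its transplants for Cox6a1 and falls as low as -0.44 for Ndufs6.

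Ndufa4l2 had the widest range of any subunit, 5.69 to 10.56. Primary tumors had 5.69, 6.89 and 8.24, and transplant 5 had 6.29, 7.82 and 10.56. It was 1.19 ± 0.38 higher at transplant 5 (2.28-fold, limma adjusted p = 0.0266), in 7 of 10 series, and 0.80 ± 0.28 higher over all transplants (1.74-fold), which was not called (limma adjusted p = 0.0626). The call at transplant 5 was lost without series 17 (0.93, adjusted p = 0.111) and without series 34 (0.97, adjusted p = 0.0828), and in 10 of 26 alternatives in all. Series 17 had 6.89 in the primary tumor and 9.43, 9.40, 9.35, 9.94 and 10.56 in transplants 1 to 5. The summary level of the subunits was -0.19, -0.28, -0.42 and -0.44 at transplants 1 to 4, and -0.05 at transplant 5, where Ndufa4l2 was highest. Against the other series it was 1.80 ± 0.37 higher there (3.48-fold, limma adjusted p = 0.000555), the only member called higher in series 17. In series 34 it had 9.22 and 10.51 at transplants 4 and 5, after 6.55 to 7.62 before. Ndufa4, its paralog, had 10.66 in the primary tumor of series 17 and 9.61 to 9.82 in its transplants, and in series 34 it had 10.74 to 10.85 up to transplant 2 and 9.30 to 9.62 from transplant 3 on. In these series Ndufa4 was low where Ndufa4l2 was high, except at transplant 3 of series 34, where Ndufa4l2 had 7.62. This did not hold in series 36, where Ndufa4l2 of 9.02 and 9.90 at transplants 2 and 4 went with Ndufa4 of 10.41 and 10.48, nor in series 33, where Ndufa4l2 reached 9.55 and Ndufa4 lay between 10.68 and 11.02 in all 6 arrays.

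The other members gave no call between generations in the main fit. After quantile normalization Atp5f1e, Atp5if1, Atp5me and Uqcr10 were called lower over all transplants and at transplant 5 (530 and 668 of all genes lower). Atp5if1 was also called lower over all transplants without rescaling and with the array median as a covariate. Atp5f1e and Atp5me were called lower at transplant 5 without the transplant 5 array of series 32. In the main fit the lowest differences over all transplants were those of Atp5if1, which blocks ATP hydrolysis by the synthase (-0.22 ± 0.09, limma adjusted p = 0.089), and Atp5f1e, the epsilon subunit (-0.21 ± 0.09, limma adjusted p = 0.148). Ndufa4 had -0.19 ± 0.12 (limma adjusted p = 0.336). In complex III, differences lay between -0.15 for Uqcr10 and 0.12 for Uqcrq, both small accessory subunits. In complex II they lay between -0.06 for Sdhaf2 and 0.12 for Sdha, the flavoprotein subunit. The pseudogene Cox6c-ps1 had -0.09 ± 0.11 where Cox6c had 0.15 ± 0.06 (limma adjusted p = 0.644 and 0.0864), and probes of a pseudogene and its parent may share targets. Median differences at transplant 5 were 0.07 for the 35 subunits of complex I, -0.07 for the 4 of complex II, -0.04 for the 7 of complex III, 0.08 for the 10 of complex IV and 0.04 for the 15 of complex V.

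Of the muscle isoforms of complex IV, Cox6a2 was at the floor in 40 of 65 arrays, Cox7a1 in 2 (median 5.94) and Cox8b in 1 (median 6.31). Cox6a2 was above 7 in 10 arrays. Of these, 6 were the arrays high in skeletal muscle markers, with 9.04 at transplant 3 of series 25L, 8.26 at transplant 3 of series 25R, 7.81 at transplant 2 of series 33, 7.39 at transplant 5 of series 34, 7.18 in the primary tumor of series 42 and 7.13 at transplant 2 of series 25L. The other 4 were all of series 36, where Cox6a2 had 5.70 in the primary tumor, 5.38 at transplant 1, and 7.42, 7.09, 7.16 and 8.75 at transplants 2 to 5. In that series the muscle markers summed to only 1200 to 1310, and Acta1, Myl1, Tnni2 and Tnnc2 were at the floor in all 6 arrays. The correlation of Cox6a2 with the mean of the muscle markers was 0.63 over 65 arrays and 0.85 without series 36. Cox7a1 lay between 5.31 and 6.60 in all arrays, and Cox8b reached 8.0 at transplant 5 of series 32 and 7.30 and 7.12 in the primary tumor and transplant 1 of series 42, with 5.31 to 6.95 elsewhere. The matching forms used outside muscle, Cox6a1 and Cox8a, were present in every array (10.09 to 11.54 and 10.86 to 12.63). Cox6b2, a form known from testis, was at the floor in 35 arrays and reached 7.73.

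**Figure D5:**
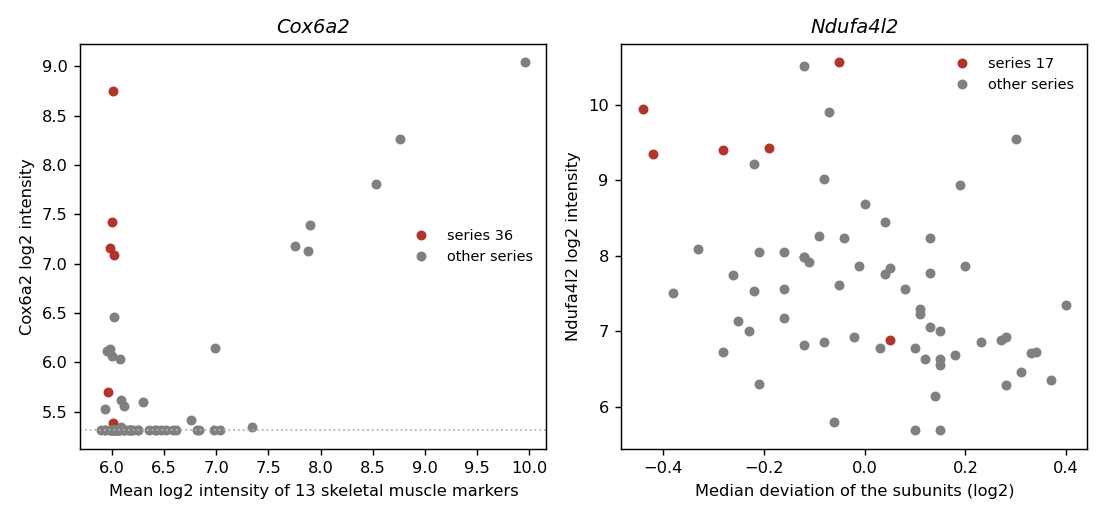
Left, Cox6a2 log2 intensity against the mean log2 intensity of 13 skeletal muscle markers in the 65 arrays, with series 36 in red and the floor as a dotted line; right, Ndufa4l2 log2 intensity against the median deviation of the subunits, with series 17 in red. Cox6a2 is above 7 in the 6 arrays whose muscle markers average above 7.5 and in 4 arrays of series 36 with low ones. Ndufa4l2 is above 9 in all 5 transplants of series 17.

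Other genes of energy metabolism were read from fixed lists beside the members. The background for every list was 4.71% of all genes higher and 5.19% lower over all transplants. At transplant 5 it was 7.91% and 6.99%. Of 14 glycolysis genes 9 were higher over all transplants and 0 lower, with a median difference of 0.36, and 10 were higher at transplant 5 (median 0.53). Among them, Tpi1 had 0.55 ± 0.13 (limma adjusted p = 0.00422) and Ldha, which makes lactate, 0.38 ± 0.12 (limma adjusted p = 0.0381) over all transplants. Of 13 genes of the citric acid cycle and pyruvate dehydrogenase, 2 were higher over all transplants, Dlst and Pdha1, and 0 lower (median 0.13). Of 70 mitochondrial ribosome genes 0 were higher and 1 was lower, Mrpl16, and of 22 protein import genes 2 were higher and 1 lower. Of 15 assembly factors outside the rule 0 were called over all transplants, and of 4 tested regulators of mitochondrial biogenesis 0. Among 11 carriers and other respiratory genes Vdac3 was higher and Vdac1 lower (-0.27 ± 0.07, limma adjusted p = 0.015).

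Differences between series reached these lists too. In series 42, 10 of 13 citric acid cycle genes were higher, as were 37 of 70 mitochondrial ribosome genes, 18 of 22 import genes and 11 of 14 glycolysis genes (background 34.5% of all genes). Lower there (background 26.4%) were 3 mitochondrial ribosome genes, among them Mrpl14 (-1.43), 3 import genes, among them Tomm7 (-0.92), and the glycolysis list's Pdk1 (-0.30). Of the 4 tested regulators of mitochondrial biogenesis only 1 was called in series 42, and the list median was 0.05. It was Tfam, the packaging factor of mitochondrial DNA, with 0.49 ± 0.13 (limma adjusted p = 0.000615). Gabpb1, Polrmt and Polg had -0.14, 0.06 and 0.04. In series 33, 18 of 70 mitochondrial ribosome genes and 6 of 13 citric acid cycle genes were higher (background 11.5% of all genes). Ogdh of the latter list was lower (background 8.34%), and 0 of 14 glycolysis genes were called in either direction. In series 17, 18 of 70 mitochondrial ribosome genes and 6 of 13 citric acid cycle genes were lower (background 10.9%) and 0 of either list higher (5.33%). In series 19, 14 of 70 and 5 of 13 were lower (background 16.8%), with 1 mitochondrial ribosome gene higher (7.12%). The share of lower mitochondrial ribosome genes in series 19 was thus close to that of all genes. No test compared these lists with other genes.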

How the data were processed

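RNA of each tumor was measured on 1 Affymetrix array. Per the labels' protocols, biotinylated cRNA was made from 6 micrograms of total RNA extracted from frozen tissue. The deposited value table holds linear intensities for 15923 probe sets, made by the authors with a summary and scaling that are not given in the sources used here; values run from 1 to 12011. Here each array was scaled to a common median of 162 over the 15866 probe sets that are not controls, the pooled 10th percentile (39.8) served as the lowest allowed value, and the rescaled deposited intensities were turned into log2 values. The platform annotation names 1 gene for 12789 probe sets, several for 312 and none for 2771, and 12754 could be updated through RefSeq. For each gene the probe set with the highest mean was kept, and genes in the lowest 25% by mean were left out.

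The fit was made in limma (version 3.58.1, R 4.3.3) over the 65 arrays, with terms for generation and series, and Benjamini-Hochberg adjustment over all 7808 genes. Series pairs the samples because the labels give each series 1 primary tumor and its transplants; after removing generation means, 49 of 65 arrays correlated best with an array of their own series (mean correlation 0.38 within and -0.037 between series). Members, lists and tests were chosen with earlier results of these data known. Named members are those called between generations, the highest and lowest difference of each complex, the 10 with the largest series shares, the muscle isoforms with their counterparts, and the brightest and dimmest 2. Prkar2a, Met and other genes outside this rule were chosen after their values were seen. Marker lists covered epithelium (8 genes), muscle (13), macrophages (8), fibroblasts (7), adipocytes (8) and proliferation (5). Summed intensities in series 42 and in all series were 6050 to 15500 and 630 to 56100 for fibroblasts, 395 to 1380 and 345 to 4130 for adipocytes, and 2480 to 3740 and 624 to 3950 for proliferation. The fitting code was tested on simulated data.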

Additional observations from a re-analysis of the deposited data

Results flagged for a closer look

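Of 20 groups checked for a value far from the rest, 1 held one, and chance gives about 1 in 20. Ndufs6 at transplant 5 was 10.90 in series 32, and the next highest of the 10 tumors had 9.99, a gap of 0.657 of the whole range. The same array had the lowest median intensity before scaling, 96.1, epithelial markers near the floor, and the highest summary level of the subunits, 0.40. The part of these in the value was not tested.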

How the results depend on the processing

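The calls between generations rested on the design. With no replicate block, that is without the pairing by series, 0 members were called for all transplants (5 with it), 0 for transplant 5 (7 with it) and 0 for the slope. With 1 value per series the first 2 counts were also 0. Calls over all genes fell in both settings too, as given above. For all transplants the count was 10 after quantile normalization, 6 higher and 4 lower, where 388 of 7808 genes were higher and 530 lower. In the main fit 368 were higher and 405 lower. The member count was 3 with array weights (126 and 193) and 3 with the Gapdh ratio as a covariate (183 and 214). Without the arrays high in muscle markers it was 8 (344 and 423). For transplant 5 it was 1 with array weights, where 126 genes were higher and 172 lower (618 and 546 in the main fit). With the array median before scaling as a covariate 2 members were higher, Atp5mf and Ndufs1, and 1 was lower, Atp5me (310 and 261). Without the arrays low in epithelial markers 3 members were higher and 0 lower (222 and 186). The slope gave 1 after quantile normalization. Leaving out 1 series at a time gave 4 to 8 for all transplants, 4 to 9 for transplant 5 and 0 to 2 for the slope. The sum of calls over the comparisons of each series with the others was 221, and 368 with array weights. The counts among series stayed within 1.5 times of 76, and the 10 members with the largest series shares kept their calls in series 42 under all 11 alternatives run for them. These 10 were picked from the same data for large differences between series, so their kept calls are no independent support. Alternatives on muscle markers, epithelial markers, the array median, series 42 and transplant 5 of series 32 were chosen after the data were seen. Arrays give no counts, so no depth can be stated; low members such as Cox6a2 are limited by the floor.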
